A study of Mus musculus with 36 samples.

Results

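The genes of the matrix metalloproteinases (Mmp), the ADAM and ADAMTS metalloproteinases and their tissue inhibitors (Timp) were examined in mouse 3T3-L1 cells, an embryonic fibroblast line widely used as a model of preadipocytes. Members were the genes of the expression table whose mouse symbol begins with Mmp, Timp, Adam or Adamts followed by a digit, which gave 79 of 52505 genes. They were 23 Mmp, 33 Adam, 19 Adamts and 4 Timp genes, and the 32 whose group mean reached 1 FPKM in any group are described. FPKM divides the fragments of a gene by its length and by the sequencing depth. The annotation behind the lengths is not given, so levels set side by side between genes, and sums over genes, are only approximate. The 12 RNA-seq libraries of total RNA form 4 groups of 3. Wild-type (WT) cells and cells whose genotype label is zfp217-/- were each taken at day 0 and at day 2. All groups were grown in DMEM with fetal bovine serum and penicillin/streptomycin. Day 0 was before an adipogenic cocktail and day 2 was day 2 of it. The cocktail held dexamethasone, isobutylmethylxanthine, insulin and indomethacin. Whether replicate libraries are from different cultures is not in the labels, so a p-value here speaks only of the spread among the libraries at hand, which may be technical. The labels do not say whether the zfp217-/- cells are a single clone or how they were made.

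Matrix metalloproteinases are zinc enzymes that cut collagens, laminins, fibronectin and proteoglycans, and most are secreted as inactive proenzymes. Mmp14 sits in the cell membrane, where it cuts collagen and activates the proenzyme of Mmp2 with the help of Timp2, which at higher amounts blocks both enzymes. ADAM proteins are membrane-bound relatives, several of which release the outer parts of growth factors, cytokines and receptors from the cell surface. ADAMTS proteins are secreted and process procollagens, versican, aggrecan and microfibrils. Remodelling of the pericellular collagen matrix accompanies fat cell formation, and Adam17 releases the soluble form of Dlk1 (Pref-1), which holds preadipocytes back.

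The upstream sequences of 5 members are shown because these genes were among the highest in level or fell furthest between the days. Each is the 250 bases before the annotated gene start in RefSeq on GRCm38.p6, written 5′ to 3′ on the strand of the gene. The intervals are chrX:20869916-20870165 (plus strand) for Timp1, chr11:118355412-118355661 (minus strand) for Timp2, chr10:86300162-86300411 (plus strand) for Timp3, chr14:54431348-54431597 (plus strand) for Mmp14 and chr9:7445572-7445821 (plus strand) for Mmp3. Capitals mark matches on either strand to the AP-1 motif TGANTCA, the GC box GGGCGG, the CCAAT box CCAAT and the TATA box TATAAA.
Timp1: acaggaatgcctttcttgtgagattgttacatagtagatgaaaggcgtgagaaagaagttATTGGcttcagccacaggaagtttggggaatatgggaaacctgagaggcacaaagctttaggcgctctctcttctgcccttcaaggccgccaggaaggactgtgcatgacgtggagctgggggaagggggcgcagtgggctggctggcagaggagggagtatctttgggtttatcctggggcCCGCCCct
Timp2: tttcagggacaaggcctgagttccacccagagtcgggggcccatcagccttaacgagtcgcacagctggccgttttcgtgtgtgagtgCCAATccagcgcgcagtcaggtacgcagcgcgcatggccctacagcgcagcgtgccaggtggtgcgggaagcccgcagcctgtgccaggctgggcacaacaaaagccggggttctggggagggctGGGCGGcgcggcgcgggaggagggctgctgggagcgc
Timp3: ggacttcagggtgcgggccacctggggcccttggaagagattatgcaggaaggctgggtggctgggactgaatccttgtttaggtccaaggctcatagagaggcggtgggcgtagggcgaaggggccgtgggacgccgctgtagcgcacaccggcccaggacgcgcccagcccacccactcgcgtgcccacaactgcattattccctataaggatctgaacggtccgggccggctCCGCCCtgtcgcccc
Mmp14: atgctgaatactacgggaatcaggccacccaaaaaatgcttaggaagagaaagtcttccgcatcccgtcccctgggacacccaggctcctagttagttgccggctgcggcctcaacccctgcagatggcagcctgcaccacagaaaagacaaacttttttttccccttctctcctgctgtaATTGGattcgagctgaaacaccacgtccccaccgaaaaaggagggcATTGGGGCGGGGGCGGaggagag
Mmp3: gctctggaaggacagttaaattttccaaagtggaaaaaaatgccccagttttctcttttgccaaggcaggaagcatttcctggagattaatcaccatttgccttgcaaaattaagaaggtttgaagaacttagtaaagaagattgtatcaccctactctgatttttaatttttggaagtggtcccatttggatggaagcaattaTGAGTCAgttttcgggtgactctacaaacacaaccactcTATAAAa
In Timp1 the GC box, on the opposite strand, began 8 bases before the gene start and the CCAAT box, also on the opposite strand, 190 bases before it. Timp2 held a GC box 37 bases and a CCAAT box 162 bases before its start, and Timp3 a GC box on the opposite strand 15 bases before. Mmp14 held GC boxes 19 and 13 bases before its start and CCAAT boxes on the opposite strand 69 and 23 bases before, the last of which shares a base with a GC box. Mmp3 was unlike these, with no GC box, an AP-1 motif 46 bases before its start and a TATA box 7 bases before. RefSeq windows were found for 20 of the 32 described members, as 23 windows, and motifs were counted in the 250 bases before the start. The GC box was in 14 of the 23 windows and in 32.7% of all 32851 windows searched in the same way. The AP-1 motif was in 2 of 23, those of Mmp3 and Adam19, against 6.75% of all windows. The CCAAT box was in 7 of 23 against 33.8%, and the TATA box in 2 of 23 against 12.4%. These matches describe letters only.

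The recovered read totals were 18073258 to 23114994 per library. Zfp217, the gene named in the genotype label, was not lower in the libraries labelled zfp217-/-. It was at 22 ± 0.279 FPKM in WT and 26 ± 0.883 in zfp217-/- at day 0 (SD, n = 3; 2-sided exact permutation p = 0.1), and at 15.1 ± 0.369 and 22.6 ± 0.858 at day 2 (SD, n = 3; exact permutation p = 0.1, the smallest that 3 libraries against 3 allow). In the limma model it was higher in the zfp217-/- libraries, by 0.23 on the log2 scale at day 0 (adjusted p = 7.58e-05) and 0.55 at day 2 (adjusted p = 2.41e-08). Such a value does not check the label, since a change that breaks the reading frame need not lower the message, and these libraries are called KO-labelled throughout. In WT day 0 replicate 3, 23 genes were 4-fold or more away from both of its fellow libraries, against 1 to 5 genes in each other library, and no member was among them in any library. The 8 fibroblast and preadipocyte markers were all present, with summed levels of 10600 to 10900 FPKM in WT day 0 and 27800 to 28500 in KO-labelled day 0 libraries. The 7 leukocyte markers summed to 6.18 to 13.3 FPKM over all libraries, with Ptprc, Adgre1, Itgam, Tyrobp and Csf1r under 1 FPKM in every group and Cd14 and Cd68 above it. Endothelial markers summed to at most 1.06 FPKM and epithelial markers to at most 0.3 FPKM.

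The families differed in how many members were found at the described level. There were 8 of 23 Mmp, 10 of 33 Adam, 11 of 19 Adamts and 3 of 4 Timp genes. Of the other 47 members, 15 were listed at 0 in every library and 32 were above 0 in at least 1. Just inside the threshold of 1 FPKM were Adam1a, at 1.07 in its highest group, and Mmp9, at 1.68. Just outside it were Adam32, at 0.719, Adamts16, at 0.555, Adam4, at 0.549, and Adam22, at 0.401. The collagenase gene Mmp13 reached 0.165 FPKM and the inhibitor gene Timp4 0.281 FPKM. Of the 10 Mmp genes that lie side by side on chromosome 9 from 7272514 to 7699585, Mmp3 alone reached the threshold. The tests below cover the 30 described members whose mean over all 12 libraries reached 1 FPKM, and Adam1a and Mmp9 are given by their levels.

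**Figure D1:**
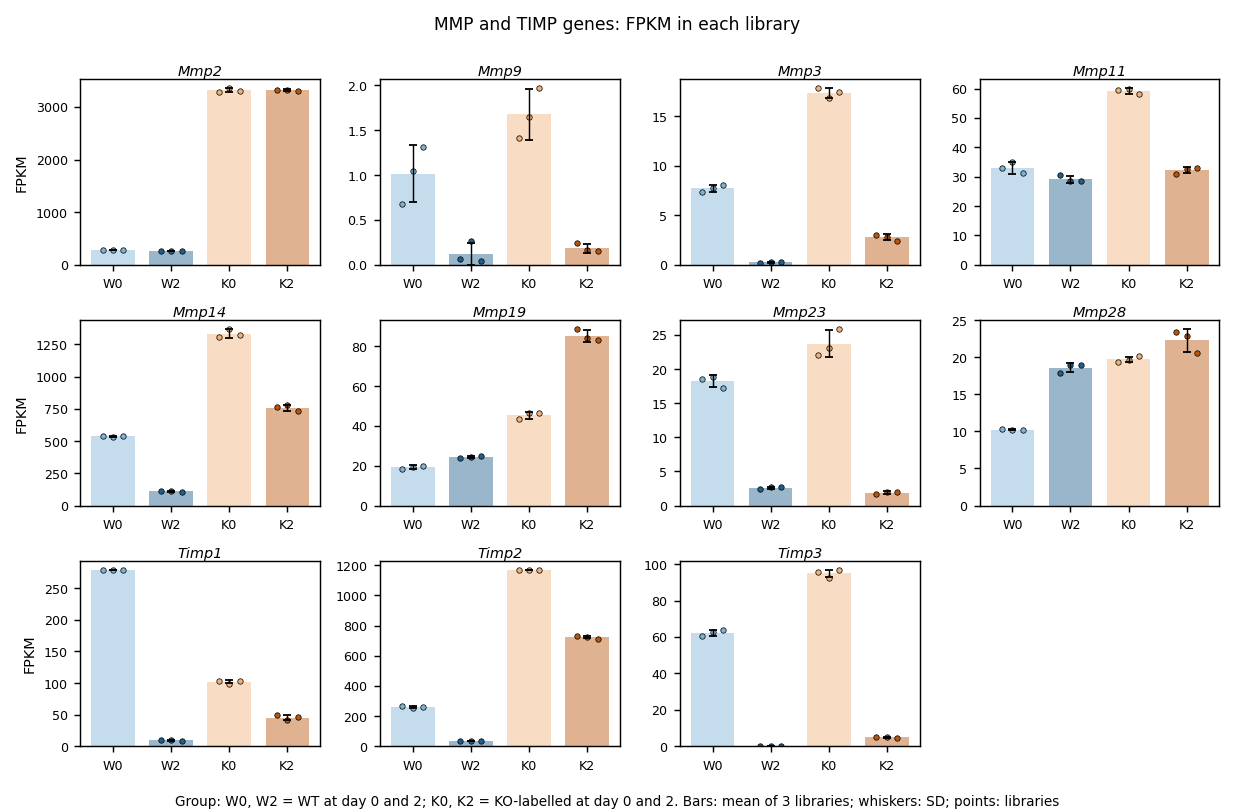
FPKM (vertical axes, a separate linear scale for each gene) of the 8 described Mmp and 3 described Timp genes in WT and KO-labelled cells at day 0 and day 2, with bars for the mean of 3 libraries, whiskers for the SD and points for single libraries. Mmp2 sits at 259 to 287 FPKM in WT and 3290 to 3360 in KO-labelled libraries at both days, while Timp3 falls from 60.7 to 63.7 to under 1 FPKM in WT between the days.

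The inhibitors come first, since each fell between the days in both genotypes. Timp1 (ENSMUSG00000001131, chromosome X, 20870166 to 20874737), a secreted inhibitor that also binds the proenzyme of Mmp9, was at 279, 279 and 279 FPKM in WT day 0 and 9.98, 9.52 and 9.13 in WT day 2. In KO-labelled cells it was at 104, 99.2 and 103 FPKM at day 0 and 48.9, 41.4 and 46.1 at day 2. Its order thus turned between the days, with WT the higher at day 0 and KO-labelled the higher at day 2, and no group overlapped another. Its KO-labelled level was 2.74-fold lower at day 0 (log2 change of FPKM + 1, -1.44, SE 0.05, adjusted p = 7.87e-11) and 4.76-fold higher at day 2 (2.14, SE 0.05, adjusted p = 2.04e-12). Between the days Timp1 fell 29.2-fold in WT (adjusted p = 1.72e-15) and 2.24-fold in KO-labelled cells (adjusted p = 1.11e-09). In bulk libraries, fewer cells that make a message and less of it per cell cannot be told apart.

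Timp2 (ENSMUSG00000017466, chromosome 11, 118301061 to 118355411), the partner of Mmp14 in activating Mmp2, was at 269, 253 and 259 FPKM in WT day 0 and 38, 37.5 and 37.6 in WT day 2. The KO-labelled libraries were at 1170, 1170 and 1170 FPKM at day 0 and 728, 727 and 713 at day 2. Both KO-labelled groups were above both WT groups, without overlap. The level was 4.48-fold higher in KO-labelled cells at day 0 (log2 change 2.16, SE 0.02, adjusted p = 6.17e-15) and 19.2-fold higher at day 2 (4.22, SE 0.02, adjusted p = 5.15e-17). It fell 6.91-fold between the days in WT (adjusted p = 2.6e-16) and 1.61-fold in KO-labelled cells (adjusted p = 8.34e-11).

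Timp3 (ENSMUSG00000020044, chromosome 10, 86300412 to 86349505), the inhibitor that binds to the matrix and also blocks Adam17 and aggrecan-cutting ADAMTS enzymes, was at 60.7, 62.5 and 63.7 FPKM in WT day 0 and 0.285, 0.429 and 0.448 in WT day 2. In the KO-labelled libraries it was at 95.4, 92.5 and 96.6 FPKM at day 0 and 5.21, 5.25 and 4.62 at day 2. Both genotypes were high at day 0 and low at day 2, with the KO-labelled libraries above the WT libraries at each day. It fell 161-fold in WT, to 15, 20 and 21 reads (log2 change -5.51, SE 0.05, adjusted p = 9.5e-16), and 18.9-fold in KO-labelled cells (-3.99, SE 0.05, adjusted p = 3.68e-14). The KO-labelled level was 1.52-fold higher at day 0 (0.60, SE 0.05, adjusted p = 6.15e-07) and 13-fold higher at day 2 (2.12, SE 0.05, adjusted p = 4.3e-12). The log2(FPKM + 1) scale understates changes of low levels, and with a pseudocount of 0.1 the day 2 difference of Timp3 was 3.41. Timp1, Timp2 and Timp3 overlap Syn1, Cep295nl and Syn3, which were at no more than 0.366, 1.13 and 0.108 FPKM, and since the strand setting is not given, reads of overlapping genes cannot be told apart.

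Of the Mmp genes, Mmp14 was the highest in WT day 0 and Mmp2 in the other 3 groups. Mmp2 (ENSMUSG00000031740, chromosome 8, 92827290 to 92853421), gelatinase A, was at 287, 274 and 280 FPKM in WT day 0 and 264, 259 and 260 in WT day 2. The KO-labelled libraries were at 3290, 3360 and 3310 FPKM at day 0 and 3330, 3320 and 3300 at day 2. The genotypes were far apart at each day, and the days overlapped within the KO-labelled cells. The level was 11.8-fold higher in KO-labelled cells at day 0 (log2 change 3.56, SE 0.02, adjusted p = 1.67e-16) and 12.7-fold higher at day 2 (3.66, SE 0.02, adjusted p = 6.13e-17). It was 1.07-fold lower at day 2 in WT (-0.10, SE 0.02, adjusted p = 0.000695), a call that was lost with median-of-ratios scaling (0.00, adjusted p = 0.898). In KO-labelled cells the change between the days was 0.00 (SE 0.02, adjusted p = 0.928). Genes of chromosome 8, where Mmp2 and Adam9 lie, had a median log2 difference between the genotypes 0.42 above that of all genes at day 0 and 0.40 above it at day 2, the highest of the chromosomes tabulated, and its part in these results was not tested.

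Mmp14 (ENSMUSG00000000957, chromosome 14, 54431598 to 54442456), the membrane enzyme that activates proMmp2, was at 543, 529 and 536 FPKM in WT day 0 and 112, 111 and 107 in WT day 2. It was at 1310, 1370 and 1320 FPKM in KO-labelled day 0 and 763, 777 and 731 in KO-labelled day 2 libraries. Every KO-labelled library was above every WT library, and day 2 was below day 0 in each genotype. Mmp14 was 2.48-fold higher in KO-labelled cells at day 0 (log2 change 1.31, SE 0.03, adjusted p = 1.26e-12) and 6.89-fold higher at day 2 (2.77, SE 0.03, adjusted p = 2.5e-15). It fell 4.88-fold between the days in WT (adjusted p = 6.17e-15) and 1.76-fold in KO-labelled cells (adjusted p = 1.37e-10). No other membrane-type Mmp gene reached 1 FPKM.

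Mmp3 (ENSMUSG00000043613, chromosome 9, 7445822 to 7455975), stromelysin-1, which cuts many matrix proteins and activates other proenzymes, was far lower in level. WT libraries held 7.36, 7.79 and 8.02 FPKM at day 0 and 0.216, 0.244 and 0.243, or 9 reads each, at day 2. KO-labelled libraries held 17.8, 16.8 and 17.4 FPKM at day 0 and 3.02, 2.83 and 2.44 at day 2. Day 0 was above day 2 in both genotypes, and KO-labelled above WT at both days, with no overlap. It was 2.24-fold higher in KO-labelled cells at day 0 (log2 change 1.07, SE 0.06, adjusted p = 1.04e-08) and 11.8-fold higher at day 2 (1.61, SE 0.06, adjusted p = 2.15e-10; 3.09 with a pseudocount of 0.1). Between the days it fell 32.9-fold in WT (-2.82, SE 0.06, adjusted p = 1.04e-12; -4.55 with a pseudocount of 0.1) and 6.27-fold in KO-labelled cells (-2.29, SE 0.06, adjusted p = 1.62e-11).

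Mmp11 (ENSMUSG00000000901, chromosome 10, 75923221 to 75932502), stromelysin-3, which furin activates inside the cell, was at 32.9, 35.1 and 31.1 FPKM in WT day 0 and 30.4, 28.4 and 28.5 in WT day 2. The KO-labelled libraries were at 59.5, 60 and 58 FPKM at day 0 and 31, 32.5 and 32.9 at day 2. KO-labelled day 0 thus stood apart, and the other groups lay close together. The day 0 difference was 1.79-fold (log2 change 0.82, SE 0.04, adjusted p = 3.48e-09) and the day 2 difference 1.1-fold (0.14, SE 0.04, adjusted p = 0.011). Mmp11 fell 1.84-fold between the days in KO-labelled cells (-0.86, SE 0.04, adjusted p = 3.87e-09). The 1.14-fold fall in WT (-0.18, SE 0.04, adjusted p = 0.0024) was not called with median-of-ratios scaling (-0.08, adjusted p = 0.137) or quantile normalization (-0.10, adjusted p = 0.0514).

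Mmp19 (ENSMUSG00000025355, chromosome 10, 128790910 to 128800827), a secreted enzyme that cuts basement membrane proteins, rose between the days. It was at 18.3, 19.4 and 20.1 FPKM in WT day 0, 23.9, 24.6 and 24.7 in WT day 2, 43.3, 46.3 and 46.3 in KO-labelled day 0 and 88.7, 84 and 82.9 in KO-labelled day 2 libraries. The 4 groups rose in that order without overlap. The KO-labelled level was 2.35-fold higher at day 0 (log2 change 1.19, SE 0.04, adjusted p = 5.85e-11) and 3.49-fold higher at day 2 (1.76, SE 0.04, adjusted p = 1.53e-12). The rise was 1.27-fold in WT (0.33, SE 0.04, adjusted p = 9.55e-06) and 1.88-fold in KO-labelled cells (0.90, SE 0.04, adjusted p = 1.36e-09). Mmp19 shares 2739 bases with Tmem198b, which was at 2.15 to 11 FPKM over the groups.

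Mmp23 (ENSMUSG00000029061, chromosome 4, 155650655 to 155654539), a membrane-anchored enzyme of unusual domain make-up, was at 18.6, 18.9 and 17.2 FPKM in WT day 0 and 2.45, 2.67 and 2.71 in WT day 2. In KO-labelled cells it was at 22.1, 23.1 and 25.9 FPKM at day 0 and 1.65, 2.06 and 2 at day 2. Its levels were high at day 0 and low at day 2 in both genotypes, with the KO-labelled libraries the higher at day 0 and the lower at day 2. It fell 6.99-fold in WT (log2 change -2.41, SE 0.07, adjusted p = 1.41e-11) and 12.4-fold in KO-labelled cells (-3.09, SE 0.07, adjusted p = 3.52e-12). The day 2 difference between the genotypes was -0.31 (SE 0.07, adjusted p = 0.00151), and it was not called with voom on recovered reads (-0.46, adjusted p = 0.0524). Mmp28, epilysin, was at 10.2 ± 0.0922 and 18.6 ± 0.596 FPKM in WT day 0 and day 2 and at 19.7 ± 0.336 and 22.3 ± 1.53 in KO-labelled cells. It overlaps 1700020L24Rik over 465 bases, a gene at 5.8 to 17 FPKM that was likewise lowest in WT day 0 and highest in KO-labelled day 2. Mmp9, gelatinase B, was at 0.682, 1.05 and 1.31 FPKM in WT day 0, 0.0668, 0.264 and 0.0376 in WT day 2, 1.41, 1.65 and 1.97 in KO-labelled day 0 and 0.241, 0.162 and 0.149 in KO-labelled day 2 libraries. Day 2 libraries thus held 1 to 7 reads of Mmp9, and the genotypes overlapped there.

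The summed levels put the proteases beside their inhibitors. All 23 Mmp genes together came to 907 ± 11.9 FPKM in WT day 0, 446 ± 4.32 in WT day 2, 4820 ± 73.1 in KO-labelled day 0 and 4220 ± 40.9 in KO-labelled day 2 libraries (SD, n = 3). The 4 Timp genes came to 602 ± 7.28, 47.9 ± 0.535, 1360 ± 4.42 and 773 ± 9.61 FPKM in the same order. The Timp sum over the Mmp sum was 0.664 ± 0.00148 in WT day 0, 0.107 ± 0.000159 in WT day 2, 0.283 ± 0.00516 in KO-labelled day 0 and 0.183 ± 0.0011 in KO-labelled day 2. The ratio was thus highest in WT day 0 and lowest in WT day 2, with the KO-labelled groups between them and no overlap. Mmp14 made up 59.1% of the Mmp sum in WT day 0, where Mmp2 made up 30.9%. In the other groups Mmp2 led, with 58.5% in WT day 2, 68.9% in KO-labelled day 0 and 78.6% in KO-labelled day 2. Timp1 was the largest part of the Timp sum in WT day 0, at 46.4%, and Timp2 in the others, at 78.7%, 85.6% and 93.5%. These are sums of message levels, which rest on the length used for each gene, and not of enzyme or inhibitor activity.

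**Figure D2:**
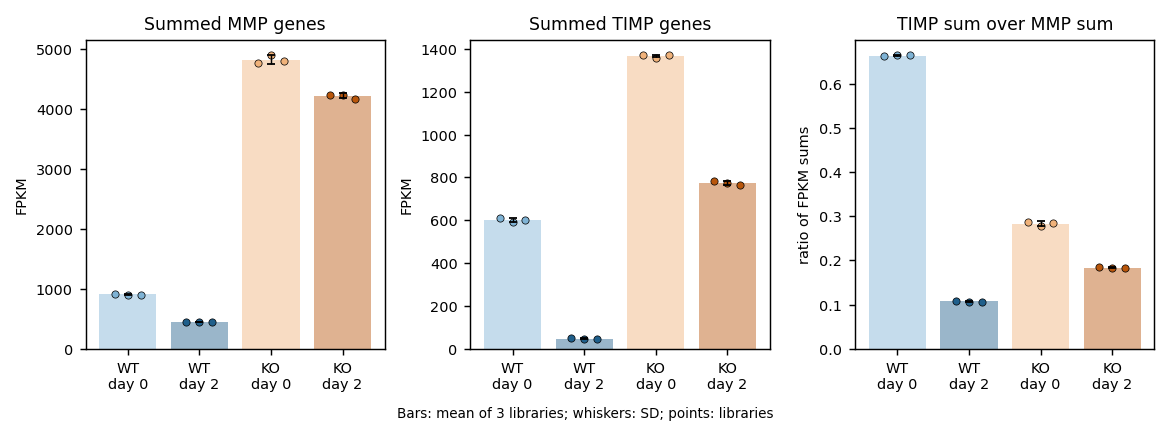
Summed FPKM of all 23 Mmp genes, summed FPKM of all 4 Timp genes and the ratio of the sums (vertical axes, linear) in the 4 groups, with bars for the mean of 3 libraries, whiskers for the SD and points for single libraries. The ratio is 0.664 in WT day 0 and 0.107 in WT day 2, and 0.283 and 0.183 in the KO-labelled groups.

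Of the ADAM genes, Adam12 differed most between the groups. Adam12 (ENSMUSG00000054555, chromosome 7, 133883199 to 134225097), meltrin alpha, cleaves insulin-like growth factor binding proteins and is made by mesenchymal cells. It was at 24.4, 21.7 and 23.4 FPKM in WT day 0 and 211, 219 and 221 in WT day 2. The KO-labelled libraries were at 1.44, 1.5 and 1.48 FPKM at day 0 and 20.6, 19.3 and 20.2 at day 2. Day 2 was above day 0 in both genotypes, and the KO-labelled level at day 2 was just under the WT level at day 0. It was 15.7-fold lower in KO-labelled cells at day 0 (log2 change -3.29, SE 0.04, adjusted p = 2.08e-14) and 10.8-fold lower at day 2 (-3.37, SE 0.04, adjusted p = 9.05e-15). The rise between the days was 9.37-fold in WT (3.17, SE 0.04, adjusted p = 9.49e-15) and 13.6-fold in KO-labelled cells (3.09, SE 0.04, adjusted p = 3.59e-14).

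Adam10 (ENSMUSG00000054693, chromosome 9, 70678944 to 70780229), the sheddase of Notch and cadherins, was at 77.4, 79.4 and 77.2 FPKM in WT day 0 and 83.7, 83.3 and 85.1 in WT day 2. In KO-labelled cells it was at 118, 117 and 116 FPKM at day 0 and 117, 117 and 116 at day 2. Both KO-labelled groups overlapped and were above the WT groups. The KO-labelled level was 1.5-fold higher at day 0 (log2 change 0.58, SE 0.02, adjusted p = 4.8e-11) and 1.39-fold higher at day 2 (0.47, SE 0.02, adjusted p = 3e-10). The 1.08-fold rise in WT (0.11, SE 0.02, adjusted p = 0.000289) was not called with quantile normalization (0.04, adjusted p = 0.0986).

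Adam17 (ENSMUSG00000052593, chromosome 12, 21323509 to 21373632), the sheddase of tumour necrosis factor and Dlk1, differed little between the genotypes. It was at 24.3, 24.7 and 25.2 FPKM in WT day 0, 29.8, 29 and 29.5 in WT day 2, 23.2, 22.4 and 24.1 in KO-labelled day 0 and 27.9, 28.3 and 28.3 in KO-labelled day 2 libraries. All 4 groups lay within 22.4 to 29.8 FPKM, with day 2 above day 0. The day 0 difference between the genotypes was -0.09 on the log2 scale (SE 0.03, adjusted p = 0.0173). That call was lost without WT day 0 replicate 3 (-0.07, adjusted p = 0.0655), without KO day 0 replicate 2 (-0.06, adjusted p = 0.0776) and with median-of-ratios scaling, and the sign turned with TPM scaling (0.01) and quantile normalization (0.02). The day 2 difference was -0.06 (SE 0.03, adjusted p = 0.0795), and it was called with median-of-ratios scaling (-0.08, adjusted p = 0.0396). Between the days Adam17 rose 1.19-fold in WT (0.24, SE 0.03, adjusted p = 1.07e-05) and 1.21-fold in KO-labelled cells (0.27, SE 0.03, adjusted p = 6.15e-06).

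Adam19 and Adam23 changed in opposite directions in the genotypes. Adam19 (ENSMUSG00000011256, chromosome 11, 46054502 to 46147347), meltrin beta, a sheddase of neuregulins, was at 14.8, 14.6 and 15.5 FPKM in WT day 0, 12.6, 13.1 and 12.4 in WT day 2, 7.23, 7.78 and 7.86 in KO-labelled day 0 and 21.7, 20.3 and 21.8 in KO-labelled day 2 libraries. KO-labelled cells were thus lowest at day 0 and highest at day 2. Adam19 was 1.96-fold lower in KO-labelled cells at day 0 (log2 change -0.89, SE 0.04, adjusted p = 1.9e-09) and 1.67-fold higher at day 2 (0.70, SE 0.04, adjusted p = 1.75e-08). The change between the days was -0.22 in WT (SE 0.04, adjusted p = 0.000607) and 1.37 in KO-labelled cells (SE 0.04, adjusted p = 6.02e-11). The WT change was 0.00 and not called with quantile normalization (adjusted p = 0.924).

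Adam23 (ENSMUSG00000025964, chromosome 1, 63445717 to 63596111), which has no active site and binds LGI proteins in nerve tissue, was at 43.9, 43.9 and 43.3 FPKM in WT day 0 and 25.6, 26.3 and 26.7 in WT day 2. The KO-labelled libraries were at 24.4, 24.8 and 24.5 FPKM at day 0 and 77.5, 78.4 and 75.1 at day 2. KO-labelled day 2 was the highest group, and KO-labelled day 0 lay just below WT day 2. The level was 1.78-fold lower in KO-labelled cells at day 0 (log2 change -0.80, SE 0.02, adjusted p = 2.53e-11) and 2.94-fold higher at day 2 (1.52, SE 0.02, adjusted p = 8.09e-14). It fell 1.67-fold between the days in WT (adjusted p = 5.54e-11) and rose 3.13-fold in KO-labelled cells (adjusted p = 9.22e-14).

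Adam8 (ENSMUSG00000025473, chromosome 7, 139978932 to 139995207), an ADAM best known from leukocytes, was at 8.95, 8.99 and 8.69 FPKM in WT day 0 and 0.774, 0.638 and 0.846 in WT day 2. The KO-labelled libraries held 7.65, 7.71 and 7.44 FPKM at day 0 and 7.94, 8.25 and 7.72 at day 2. WT day 2 alone was low. Adam8 fell 11.8-fold between the days in WT (log2 change -2.50, SE 0.05, adjusted p = 6.72e-13), and its change in KO-labelled cells was 0.06 (SE 0.05, adjusted p = 0.324; 0.16 and called with quantile normalization, adjusted p = 0.0126). It was 10.6-fold higher in KO-labelled cells at day 2 (2.36, SE 0.05, adjusted p = 1.44e-12). The day 0 difference of -0.20 (SE 0.05, adjusted p = 0.00428) was not called with TPM scaling (-0.11, adjusted p = 0.127). Of the 7 leukocyte markers, 5 stayed under 1 FPKM in every group. Cd14 was at 8.94 ± 0.512 and 1.19 ± 0.0667 FPKM in WT day 0 and day 2 and 10.6 ± 0.803 and 4.6 ± 0.35 in KO-labelled cells, so it too fell in WT (log2 change -2.18, adjusted p = 2.14e-11), and Cd68 was at 1.69 to 6.09 FPKM over the groups. The part of leukocyte-like expression in the Adam8 values was not tested.

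Adam33 (ENSMUSG00000027318, chromosome 2, 131050819 to 131063814), a mesenchymal ADAM studied in airway smooth muscle, was at 2.97, 2.57 and 1.99 FPKM in WT day 0 and 0.126, 0.227 and 0.226 in WT day 2, the last from 5, 8 and 8 reads. In KO-labelled cells it was at 20.6, 19.5 and 18.7 FPKM at day 0 and 6.32, 7.41 and 5.94 at day 2. KO-labelled libraries were above WT libraries and day 0 above day 2, without overlap. It was 7.8-fold higher in KO-labelled cells at day 0 (log2 change 2.56, SE 0.1, adjusted p = 2.87e-10) and 34-fold higher at day 2 (2.66, SE 0.1, adjusted p = 1.81e-10; 4.52 with a pseudocount of 0.1). It fell 13-fold between the days in WT (-1.55, SE 0.1, adjusted p = 3e-08; -3.16 with a pseudocount of 0.1) and 2.99-fold in KO-labelled cells (-1.45, SE 0.1, adjusted p = 1.01e-07). Adam15, metargidin, which carries an integrin-binding site, was at 28.1 ± 1.35 and 116 ± 0.634 FPKM in WT day 0 and day 2 and at 73.9 ± 2.53 and 133 ± 1.18 in KO-labelled cells. Adam9, a widely made sheddase, was at 72.5 ± 0.617 and 65.2 ± 2.52 FPKM in WT and at 75.5 ± 0.769 and 99.4 ± 1.34 in KO-labelled cells. Adam1a, a fertilin gene of the germ line, was at 0.168 to 0.487 FPKM in the WT libraries and 0.649 to 1.22 in the KO-labelled libraries.

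**Figure D3:**
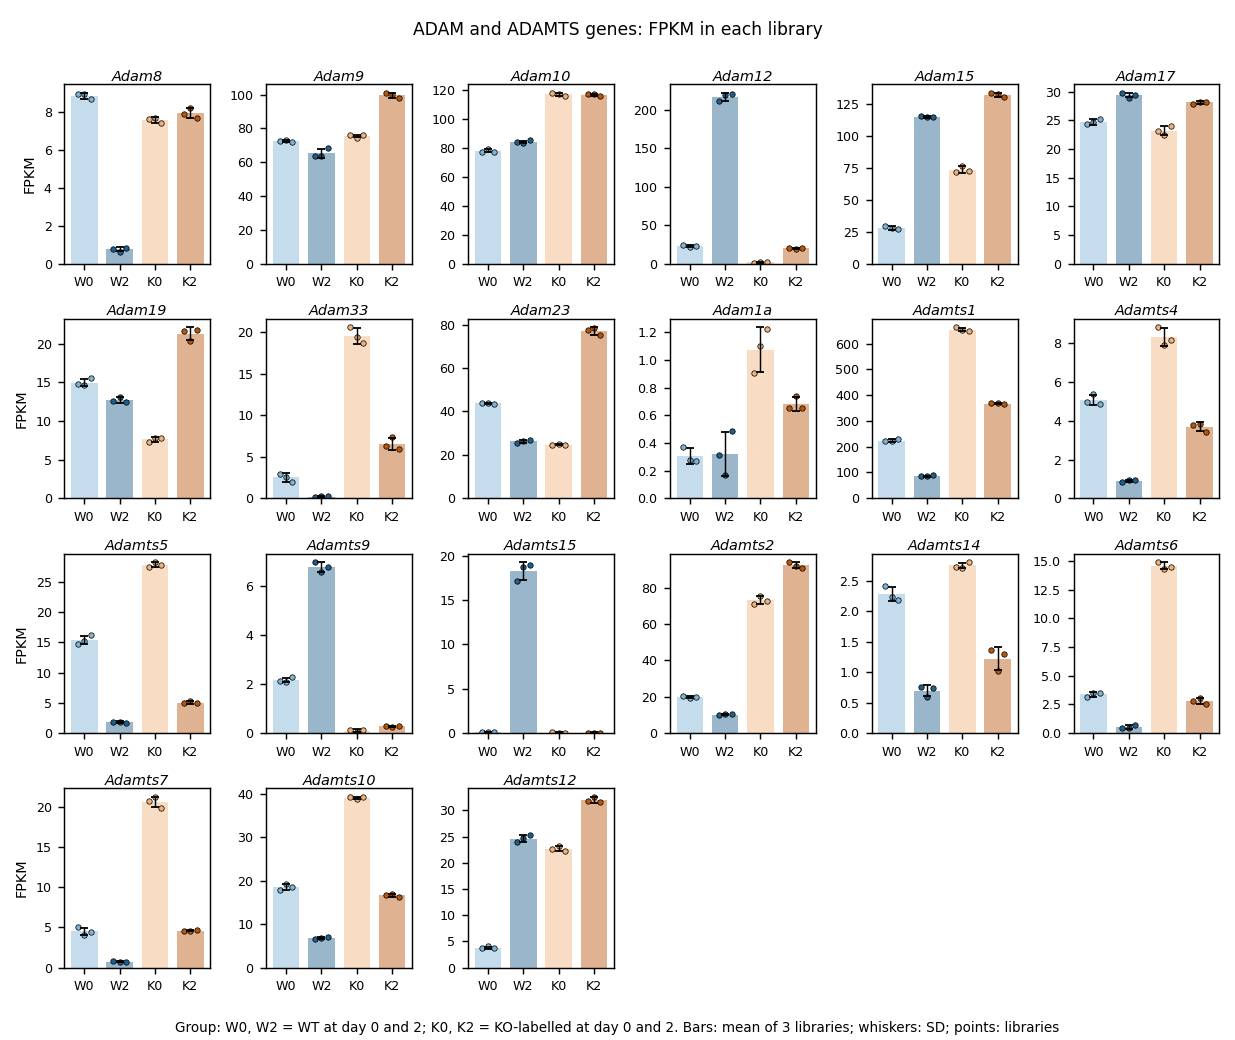
FPKM (vertical axes, a separate linear scale for each gene) of the 10 described Adam and 11 described Adamts genes in WT and KO-labelled cells at day 0 and day 2, with bars for the mean of 3 libraries, whiskers for the SD and points for single libraries. Adam12 rises in both genotypes and is lower in KO-labelled cells, and Adamts15 is seen at 17.1 to 19 FPKM in WT day 2 and at no more than 0.144 FPKM elsewhere.

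The ADAMTS genes fall into those for versican and aggrecan cutting, those for procollagen processing and others. Adamts1 (ENSMUSG00000022893, chromosome 16, 85793827 to 85803113), a versican-cutting enzyme, was the highest of them. It was at 221, 221 and 229 FPKM in WT day 0 and 85.1, 85 and 88.6 in WT day 2, against 663, 651 and 650 in KO-labelled day 0 and 368, 370 and 365 in KO-labelled day 2 libraries. KO-labelled libraries were above WT libraries at both days, and both genotypes were lower at day 2. The level was 2.93-fold higher in KO-labelled cells at day 0 (log2 change 1.55, SE 0.02, adjusted p = 5.89e-14) and 4.26-fold higher at day 2 (2.08, SE 0.02, adjusted p = 3.98e-15). It fell 2.59-fold in WT (adjusted p = 7.83e-14) and 1.78-fold in KO-labelled cells (adjusted p = 1.53e-11) between the days.

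Adamts5 (ENSMUSG00000022894, chromosome 16, 85858157 to 85901125), the aggrecanase gene next to Adamts1, was at 14.8, 15.2 and 16.2 FPKM in WT day 0 and 1.88, 1.81 and 1.68 in WT day 2. The KO-labelled libraries were at 27.5, 28.3 and 27.8 FPKM at day 0 and 4.9, 5.24 and 4.91 at day 2. The order of the groups was that of Adamts1 except that KO-labelled day 2 lay below WT day 0. It was 1.81-fold higher in KO-labelled cells at day 0 (log2 change 0.82, SE 0.05, adjusted p = 7.38e-09) and 2.8-fold higher at day 2 (1.11, SE 0.05, adjusted p = 3.85e-10). The falls between the days were 8.6-fold in WT (adjusted p = 1.65e-13) and 5.55-fold in KO-labelled cells (adjusted p = 1.21e-12). Adamts4, another aggrecanase, was at 5.08 ± 0.273 and 0.913 ± 0.0506 FPKM in WT day 0 and day 2 and at 8.31 ± 0.465 and 3.69 ± 0.234 in KO-labelled cells.

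Adamts15 (ENSMUSG00000033453, chromosome 9, 30899155 to 30922452), a versican-cutting enzyme, was found in WT day 2 at 17.1, 18.7 and 19 FPKM, from 1420, 1373 and 1396 reads. In WT day 0 it was at 0.0649, 0.0952 and 0.144 FPKM, from 5, 7 and 11 reads. The KO-labelled libraries held 5, 1 and 0 reads at day 0 and 3, 0 and 3 reads at day 2. WT day 2 thus stood apart from the other groups, which lay near 0, and Adamts15 passed the filter on the mean through that group alone. Its differences from that group are therefore given as a description. The WT day 2 level was 180-fold that of WT day 0 (log2 change 4.13, or 6.53 with a pseudocount of 0.1). At day 2 the KO-labelled minus WT difference was -4.23 (-7.20 with a pseudocount of 0.1). Adamts9, a proteoglycan-cutting enzyme, was also higher in WT and at day 2, at 2.16 ± 0.0954 and 6.78 ± 0.198 FPKM in WT day 0 and day 2 and 0.0957 ± 0.0445 and 0.267 ± 0.0301 in KO-labelled cells. Without WT day 2 the mean of Adamts9 would be under 1 FPKM, so it too passed the filter through that group. Its differences from WT day 2 are likewise a description. Genes of chromosome 6, where Adamts9 lies, had a median log2 difference 0.34 below that of all genes at day 0 and 0.31 below it at day 2, and its part was not tested.

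Adamts2 (ENSMUSG00000036545, chromosome 11, 50602085 to 50807573), which removes the amino-terminal propeptide of procollagens, was at 20.3, 19.1 and 19.9 FPKM in WT day 0 and 9.66, 10.4 and 10.3 in WT day 2. KO-labelled libraries held 71, 75.5 and 72.6 FPKM at day 0 and 94, 91.9 and 91 at day 2. The genotypes did not overlap, and they moved in opposite directions between the days. Adamts2 was 3.7-fold higher in KO-labelled cells at day 0 (log2 change 1.83, SE 0.04, adjusted p = 4.84e-13) and 9.12-fold higher at day 2 (3.07, SE 0.04, adjusted p = 5.6e-15). Between the days Adamts2 fell 1.95-fold in WT (-0.90, SE 0.04, adjusted p = 2.04e-10) and rose 1.26-fold in KO-labelled cells (0.33, SE 0.04, adjusted p = 4.08e-06). Adamts14, of the same procollagen group, was at 2.28 ± 0.121 and 0.693 ± 0.0923 FPKM in WT and at 2.75 ± 0.0517 and 1.22 ± 0.186 in KO-labelled cells. Its day 0 difference of 0.19 (SE 0.08, adjusted p = 0.0398) was not called with a pseudocount of 0.1 (adjusted p = 0.103), without the filter or with quantile normalization, nor without any 1 of 5 of the 6 day 0 libraries, of which leaving out WT day 0 replicate 3 gave 0.17 (adjusted p = 0.107).

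Adamts7 and Adamts12 cut cartilage oligomeric matrix protein (Comp). Adamts7 (ENSMUSG00000032363, chromosome 9, 90162904 to 90200102) was at 5.01, 4.07 and 4.39 FPKM in WT day 0, 0.768, 0.652 and 0.675 in WT day 2, 20.7, 21.2 and 19.9 in KO-labelled day 0 and 4.53, 4.58 and 4.69 in KO-labelled day 2 libraries. The KO-labelled day 2 level lay within the range of WT day 0. It was 4.59-fold higher in KO-labelled cells at day 0 (log2 change 1.98, SE 0.06, adjusted p = 4.19e-11) and 6.59-fold higher at day 2 (1.72, SE 0.06, adjusted p = 1.29e-10). Adamts12 (ENSMUSG00000047497, chromosome 15, 11064773 to 11349232) was at 3.65, 4.02 and 3.77 FPKM in WT day 0, 23.9, 24.7 and 25.2 in WT day 2, 22.7, 23.2 and 22.2 in KO-labelled day 0 and 31.7, 32.6 and 31.6 in KO-labelled day 2 libraries. WT day 0 alone was low, and KO-labelled day 0 lay just below WT day 2. Adamts12 was 5.94-fold higher in KO-labelled cells at day 0 (2.30, SE 0.04, adjusted p = 1.03e-13) and 1.3-fold higher at day 2 (0.36, SE 0.04, adjusted p = 1.69e-06). It rose 6.45-fold between the days in WT (adjusted p = 3.52e-14) and 1.41-fold in KO-labelled cells (adjusted p = 2.17e-07), while Adamts7 fell 6.43-fold (adjusted p = 1.42e-10) and 4.48-fold (adjusted p = 7.96e-11).

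Adamts6 and Adamts10 act on fibrillin microfibrils. Adamts6 (ENSMUSG00000046169, chromosome 13, 104286518 to 104496695) was at 3.14, 3.52 and 3.49 FPKM in WT day 0, 0.449, 0.416 and 0.716 in WT day 2, 14.9, 14.3 and 14.5 in KO-labelled day 0 and 2.81, 3.03 and 2.53 in KO-labelled day 2 libraries. Each genotype was lower at day 2, and the KO-labelled libraries were above WT at each day. It was 4.32-fold higher in KO-labelled cells at day 0 (log2 change 1.83, SE 0.08, adjusted p = 7.13e-10) and 5.3-fold higher at day 2 (1.32, SE 0.08, adjusted p = 1.5e-08; 2.23 with a pseudocount of 0.1). Between the days Adamts6 fell 6.42-fold in WT (-1.53, SE 0.08, adjusted p = 3.54e-09; -2.50 with a pseudocount of 0.1) and 5.23-fold in KO-labelled cells (-2.04, SE 0.08, adjusted p = 4.44e-10). Adamts10 was at 18.5 ± 0.735 and 6.78 ± 0.28 FPKM in WT day 0 and day 2 and at 39.1 ± 0.278 and 16.6 ± 0.348 in KO-labelled cells.

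The comparison of KO-labelled with WT cells at day 0 asks how the families differed before the cocktail. On the log2(FPKM + 1) scale Mmp2, Adam33, Adamts12, Timp2 and Adamts7 were the most raised in KO-labelled cells, and Adam12 the most lowered. By the ratio of mean FPKM, Adamts9 (22.6-fold lower) went further than Adam12 (15.7-fold lower). The KO-labelled level of Adamts9 came from only 9, 4 and 11 reads, so its ratio is uncertain. Of 30 members tested, 21 were higher, 7 lower and 2 not called, where 82.4% of all 12961 genes tested were called, 38.3% higher and 44.2% lower. The median log2 change was 0.82 over the members and -0.06 over all genes. By family, 7 of 7 Mmp genes were higher, 3 of 9 Adam genes higher and 5 lower, 9 of 11 Adamts genes higher and 1 lower, and 2 of 3 Timp genes higher and 1 lower. The lower Adam genes were Adam8, Adam12, Adam17, Adam19 and Adam23, the lower Adamts gene was Adamts9 and the lower inhibitor was Timp1. A change of at least 2-fold on the log2(FPKM + 1) scale was seen in 13 members called higher and 3 called lower. The share of all genes past that cut was not counted, so these counts only describe the members. Adam9 (log2 change 0.06, adjusted p = 0.0575) and Adamts15 were not called. Adam9 was called higher with TPM (0.16, adjusted p = 0.00041), median-of-ratios (0.08) and quantile (0.18) scaling and with voom (0.06, adjusted p = 0.0447), and Adamts15 lower with voom (-2.28, adjusted p = 0.0213).

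At day 2 of the cocktail the KO-labelled cells held more of 25 of the 30 tested members. On the log2(FPKM + 1) scale Timp2, Mmp2, Adamts2 and Mmp14 were the most raised, and Adamts15 and Adam12 the most lowered. By the ratio of mean FPKM, Adam33 (34-fold higher) and Adamts9 (25.4-fold lower) went further than Timp2 (19.2-fold) and Adam12 (10.8-fold). Both ratios rest on few reads, 5, 8 and 8 of Adam33 in WT and 28, 19 and 23 of Adamts9 in KO-labelled libraries. Another 4 were lower and 1, Adam17, was not called, where 81.4% of all genes were called, 40.8% higher and 40.6% lower. The median was 1.23 over the members and 0 over all genes. The 4 lower were Mmp23, Adam12, Adamts9 and Adamts15, of which 2 were left to test with a minimum mean of 5 FPKM. Adamts9 and Adamts15 were tested only through their WT day 2 levels. All 3 tested Timp genes, 6 of 7 Mmp, 7 of 9 Adam and 9 of 11 Adamts genes were higher. These libraries differed in fat cell markers too, which summed to 6870 to 7040 FPKM in WT day 2 and 354 to 364 in KO-labelled day 2, with 7 of 7 lower. Fibroblast and preadipocyte markers summed to 1480 to 1510 and 8470 to 8780 FPKM, with 8 of 8 higher, and the part of these states in the members' values was not tested. Of the fat cell markers, Adipoq was at 47.1 FPKM in WT day 2 and at most 0.472 in any other group. Adipoq was thus tested only through its WT day 2 level.

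**Figure D4:**
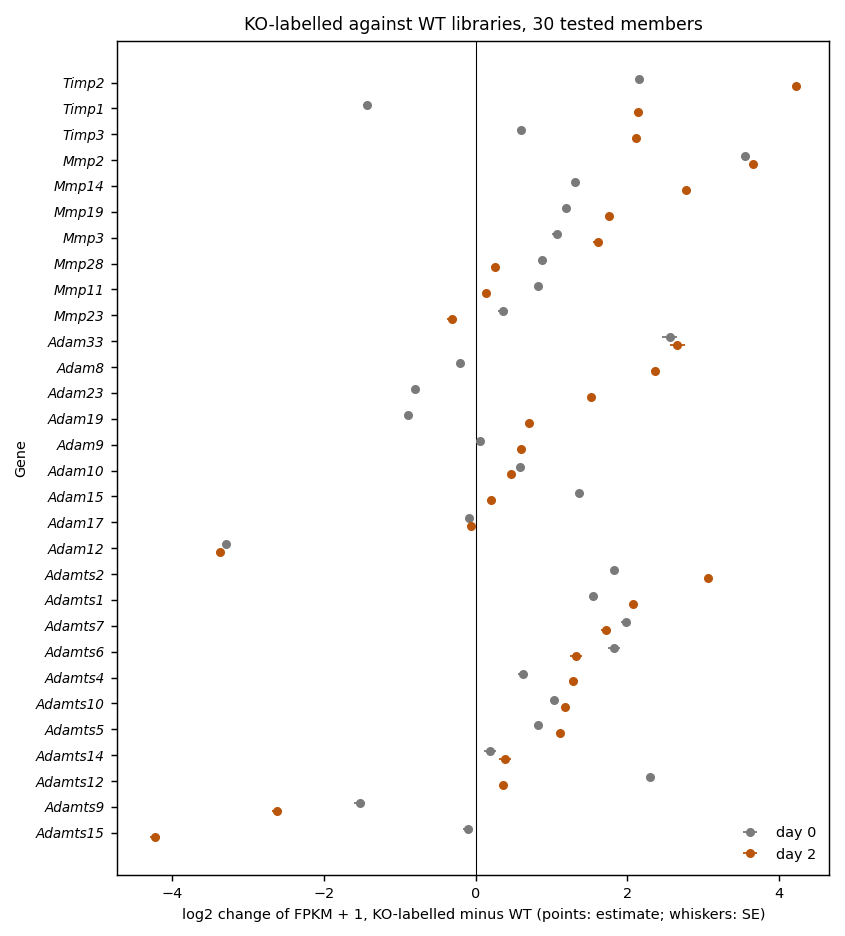
Log2 change of FPKM + 1, KO-labelled minus WT (horizontal axis), for the 30 tested members at day 0 (grey) and day 2 (orange), with points for the estimate and whiskers for the SE. At day 0 the Mmp genes lie at or to the right of 0.36, and at day 2 the Timp genes lie at 2.12 to 4.22.

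The change from day 0 to day 2 in WT cells shows how the families moved as the fat cell program began. Timp1, Timp2, Timp3, Mmp14, Mmp3, Mmp23, Adam8 and Adamts5 fell, while Adam12, Adam15 and Adamts12 rose. All 30 members were called, 9 higher and 21 lower, where 80.7% of all genes were called, 34.2% higher and 46.5% lower. The median was -0.93 over the members and -0.11 over all genes, and quantile normalization moved the median of all genes to 0.01. The other members called higher were Mmp19 (log2 change 0.33), Mmp28 (0.80), Adam10 (0.11), Adam17 (0.24), Adamts9 and Adamts15. Adamts9 and Adamts15 were tested only through their WT day 2 levels. By family, 5 of 7 Mmp, 5 of 9 Adam, 8 of 11 Adamts and 3 of 3 Timp genes fell. Over the same days the fat cell markers went from 68.5 to 73.6 FPKM in sum to 6870 to 7040, with 7 of 7 higher, and 8 of 8 fibroblast markers fell. The part of these states in the members' changes in WT was not tested. Adipoq, of the fat cell markers, was likewise tested only through its WT day 2 level.

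The change between the days in KO-labelled cells was, as in WT, largest in an inhibitor on the log2(FPKM + 1) scale. Timp3, Mmp23, Mmp3, Adamts5 and Adamts6 fell most, and Adam12 (3.09), Adam23 (1.61) and Adam19 (1.37) rose most. Of the 30 members, 11 were higher, 15 lower and 4 not called, where 72.7% of all genes were called, 33.9% higher and 38.8% lower. The 11 include Adamts9 (0.21, adjusted p = 0.0136), which was tested only through its WT day 2 level. Its call was lost with quantile normalization (0.06, adjusted p = 0.403). The median was -0.35 over the members and -0.03 over all genes. The 4 not called were Mmp2, Adam8, Adam10 and Adamts15. By family, 4 of 7 Mmp, 1 of 9 Adam, 7 of 11 Adamts and 3 of 3 Timp genes fell, and the falling Adam gene was Adam33. The fat cell markers went from 197 to 208 FPKM in sum to 354 to 364, with 7 of 7 higher. Among them, Adipoq was tested only through its WT day 2 level and was at 0.0572 and 0.472 FPKM here. Fibroblast and preadipocyte markers went from 27800 to 28500 FPKM in sum to 8470 to 8780, with 7 of 8 lower and 1 higher, and the part of these states in the members' changes was not tested. This comparison and those above share libraries pairwise, so their calls are not independent of each other.

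**Figure D5:**
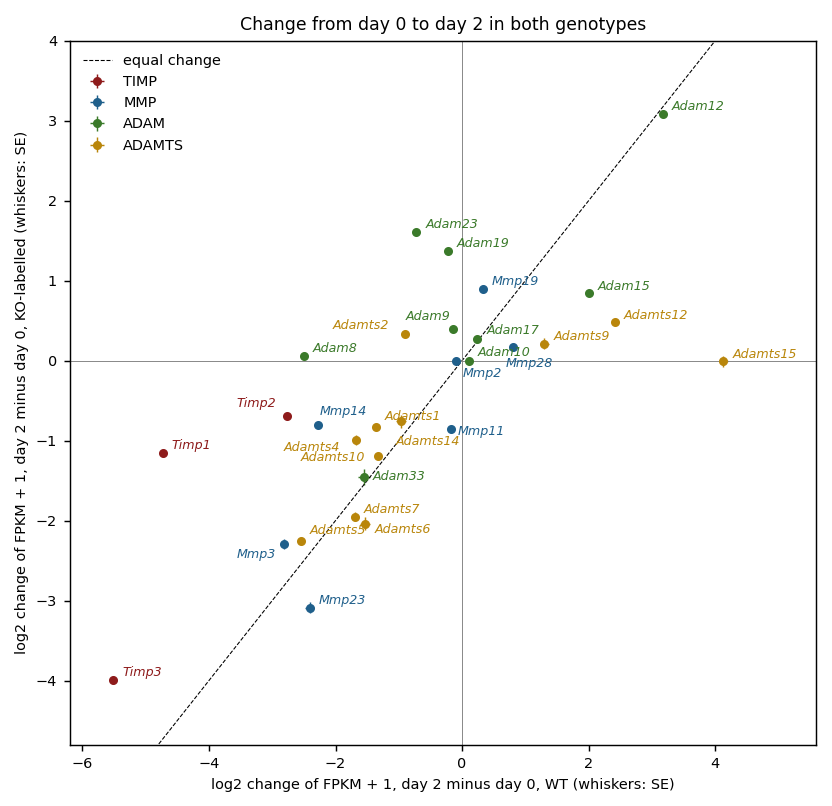
Log2 change of FPKM + 1 from day 0 to day 2 in WT (horizontal axis) and in KO-labelled cells (vertical axis) for the 30 tested members, with points for the estimate, whiskers for the SE and a dashed line where both changes are equal. Timp1 lies far from the line, at -4.73 in WT and -1.15 in KO-labelled cells, and Adam12 lies close to it, at 3.17 and 3.09.

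The interaction tests whether the change between the days differed between the genotypes. It was positive for the 3 Timp genes, at 3.58 for Timp1 (SE 0.07, adjusted p = 1.46e-12), 2.07 for Timp2 (SE 0.03, adjusted p = 2.39e-13) and 1.52 for Timp3 (SE 0.08, adjusted p = 4.28e-09), which fell less in KO-labelled than in WT cells. Adam8 (2.56, SE 0.08, adjusted p = 3.54e-11), Adam23 (2.32, SE 0.03, adjusted p = 1.78e-13) and Mmp14 (1.46, SE 0.04, adjusted p = 1.93e-11) went the same way. It was negative for Adamts12 (-1.93, SE 0.05, adjusted p = 1.62e-11) and Adam15 (-1.16, SE 0.05, adjusted p = 5.34e-10), which rose more in WT. For Adamts15 it was -4.13, given as a description since WT day 2 alone brought that gene into the test. Of the 30 members, 16 were positive and 10 negative, where 73.8% of all genes were called, 40.8% positive and 33% negative. For Adam12 the difference was -0.09 (SE 0.06, adjusted p = 0.208), although it was 0.46 with a pseudocount of 0.1 (adjusted p = 4.2e-05). With that pseudocount the negative call of Adamts7 (-0.26, adjusted p = 0.0225) became a positive one (0.38, adjusted p = 0.014), and that of Adamts6 (-0.52, adjusted p = 0.00152) was lost with its sign turned (0.15, adjusted p = 0.532).

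The genes that activate, assist or clear these proteases were counted from a list of 21, of which 17 were tested. At day 0, 9 were higher and 7 lower in KO-labelled cells, where 38.3% of all genes were higher and 44.2% lower. At day 2, 13 were higher and 3 lower, where 40.8% of all genes were higher and 40.6% lower. The list's medians were 0.32 and 0.70, against -0.06 and 0 over all genes. Reck, a membrane protein that inhibits Mmp14 and Mmp2, was at 6.45 ± 0.231 and 2.29 ± 0.195 FPKM in WT and 24 ± 0.307 and 10.5 ± 0.49 in KO-labelled cells. Lrp1, a scavenger receptor that clears several of these proteases from the cell surroundings, was at 768 ± 7.68 and 407 ± 10.5 FPKM in WT and 1340 ± 31.1 and 1380 ± 38.9 in KO-labelled cells. Cd44, a docking protein of Mmp14, was at 91.1 ± 1.73 and 21.4 ± 0.278 FPKM in WT and 32.2 ± 0.752 and 55.4 ± 1.22 in KO-labelled cells, an order that turned between the days. Between the days 5 were higher and 11 lower in WT, and 8 higher and 7 lower in KO-labelled cells. Of all genes, 34.2% were higher and 46.5% lower between the days in WT, and 33.9% higher and 38.8% lower in KO-labelled cells, against which the counts between the days in the lists that follow are to be read too.

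Of 12 other matrix proteases, 8 were tested, and 6 were higher and 2 lower in KO-labelled cells at day 0, where 38.3% of all genes were higher and 44.2% lower. At day 2, 7 were higher and 1 lower, where 40.8% of all genes were higher and 40.6% lower. The list's medians were 0.46 and 1.35. Ctsk, the collagen-cutting cathepsin K, was at 21.6 ± 0.364 and 5.44 ± 0.244 FPKM in WT and 79.8 ± 1.11 and 25.4 ± 1.84 in KO-labelled cells. Bmp1, which removes the carboxy-terminal propeptide of procollagens, was at 60 ± 0.356 and 25.5 ± 0.796 FPKM in WT and 125 ± 1.81 and 69.3 ± 1.69 in KO-labelled cells. Between the days 1 was higher and 7 lower in WT, and 3 higher and 5 lower in KO-labelled cells. Of 7 ADAMTS-like and papilin genes, whose products lack a protease domain, 3 were tested. In KO-labelled cells at day 0, 2 were higher and 1 lower, where 38.3% of all genes were higher and 44.2% lower. The lower was Adamtsl5 (log2 change -0.22, adjusted p = 0.000973). All 3 were higher in KO-labelled cells at day 2, where 40.8% of all genes were. Adamtsl4, which binds fibrillin, was at 11.5 ± 0.306 and 3.38 ± 0.226 FPKM in WT and 24 ± 1.31 and 82.6 ± 1.72 in KO-labelled cells, so it fell in WT (log2 change -1.51, adjusted p = 2.34e-11) and rose in KO-labelled cells (1.74, adjusted p = 1.4e-11). Adamtsl1 was at 0.229 ± 0.0837 and 0.0404 ± 0.0371 FPKM in WT and 7.46 ± 0.773 and 10.2 ± 0.368 in KO-labelled cells.

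Of 22 shed substrates of Adam10 and Adam17, 15 were tested, and 8 were higher and 6 lower in KO-labelled cells at day 0, where 38.3% of all genes were higher and 44.2% lower. At day 2, 11 were higher and 3 lower, where the shares of all genes were 40.8% and 40.6%. The list's medians were 0.42 and 1.63. Dlk1, the preadipocyte factor that Adam17 sheds, was at 416 ± 10.1 and 68.7 ± 1.22 FPKM in WT day 0 and day 2 and 880 ± 17.8 and 301 ± 3.55 in KO-labelled cells. It was higher in KO-labelled cells by 1.08 at day 0 (adjusted p = 1.56e-12) and 2.12 at day 2 (adjusted p = 5.01e-15) on the log2 scale. Notch1, a receptor that Adam10 cuts, was at 10.1 ± 0.553 and 17.1 ± 1.5 FPKM in WT and 0.583 ± 0.079 and 0.424 ± 0.0185 in KO-labelled cells. Axl, a receptor kinase, was at 344 ± 6.42 and 50.3 ± 1.09 FPKM in WT and 247 ± 3.9 and 379 ± 5.01 in KO-labelled cells. Between the days 4 were higher and 11 lower in WT, and 6 higher and 8 lower in KO-labelled cells.

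Of 14 matrix substrates of the MMP and ADAMTS enzymes, 13 were tested, and 11 were higher and 2 lower in KO-labelled cells at each day, where 38.3% of all genes were higher and 44.2% lower at day 0 and 40.8% and 40.6% at day 2. The list's medians were 1.44 and 1.82, against -0.06 and 0 over all genes. Col1a1, the main chain of the collagen that Mmp14 cuts and Adamts2 processes, was at 3540 ± 70.4 and 161 ± 2.22 FPKM in WT and 9750 ± 249 and 2020 ± 39.5 in KO-labelled cells. Col4a2, a basement membrane collagen, rose between the days in WT, from 186 ± 2.96 to 1190 ± 23.3 FPKM (log2 change 2.67, adjusted p = 3.72e-16), and was at 396 ± 5.58 and 1510 ± 31.5 in KO-labelled cells. Vcan, versican, a substrate of Adamts1, Adamts5 and Adamts15, was at 281 ± 12.2 and 265 ± 6.46 FPKM in WT and 102 ± 0.621 and 941 ± 32.9 in KO-labelled cells. Its rise in KO-labelled cells was 3.20 on the log2 scale (adjusted p = 6.12e-15). Between the days 4 were higher and 8 lower in WT, and 3 higher and 7 lower in KO-labelled cells.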

How the data were processed

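The authors deposited FPKM values for 52505 genes in 12 RNA-seq libraries. Per the submitters' processing notes, the tools were TopHat2 2.0.12, HTSeq 0.6.1, Bowtie2 2.2.3, MACS2 2.1.0, BWA 0.7.12, FastQC and CASAVA and the build mm10, with no role stated. Annotation, FPKM formula and strand setting: not given in the sources used here. Symbols were found for 51633 genes. The 24 MeRIP samples were not analysed here. Coordinates and upstream sequences are RefSeq's on GRCm38.p6, the assembly that mm10 names.

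A mean per group was fitted to log2(FPKM + 1) for the 12961 genes averaging 1 FPKM or more across all libraries (limma 3.58.1, R 4.3.3, variance trend, 8 residual degrees of freedom). Tests were 2-sided, with Benjamini-Hochberg adjustment over all genes tested and a threshold of 0.05. Folds are ratios of mean FPKM. Reads were recovered from the steps between FPKM values in all 30916 genes above 0 (tolerance 0.001 of a read), and 99.85% of genes above 0 in all libraries had a whole length (tolerance 0.05 bases). For genes seen in few libraries this check could hardly fail. The model was also run on simulated data in which few genes changed, unlike in these data, and that run does not bear on the shares called here.

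The members and gene lists were chosen with earlier results of these data known. Values in every library are given for the Timp genes, Mmp2, Mmp3, Mmp9, Mmp11, Mmp14, Mmp19, Adam10, Adam12, Adam17, Adam19, Adamts1, Adamts2, Adamts5 and the 6 members called with the largest log2 change in each comparison. Partner genes named are among the 4 of a list with the smallest adjusted p in a comparison. Some genes that meet these rules are not reported here. Alternatives were a pseudocount of 0.1, no filter, a minimum of 5 FPKM, TPM, median-of-ratios and quantile scaling, a replicate block, voom on recovered reads and leaving out each library.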

Additional observations from a re-analysis of the deposited data

Results flagged for a closer look

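The change from day 0 to day 2 differed between KO-labelled and WT cells by the interaction test in 26 of the 30 tested members, where 73.8% of all genes did. Values are the KO-labelled response minus the WT response on the log2(FPKM + 1) scale. The inhibitors stood at 3.58 for Timp1, 2.07 for Timp2 and 1.52 for Timp3. The Mmp genes stood at 1.46 for Mmp14, 0.57 for Mmp19, 0.53 for Mmp3, 0.10 for Mmp2, -0.64 for Mmp28, -0.67 for Mmp23 and -0.68 for Mmp11. The Adam genes stood at 2.56 for Adam8, 2.32 for Adam23, 1.59 for Adam19, 0.54 for Adam9, -0.11 for Adam10 and -1.16 for Adam15. The Adamts genes stood at 1.23 for Adamts2, 0.68 for Adamts4, 0.53 for Adamts1, 0.29 for Adamts5, 0.14 for Adamts10, -0.26 for Adamts7, -0.52 for Adamts6, -1.09 for Adamts9, -1.93 for Adamts12 and -4.13 for Adamts15. The result for Adamts10 was lost in 9 of 12 fits with a library left out and that for Adamts7 in 3. Adamts9 and Adamts15 entered the test through WT day 2 alone. Of the 26, Adam23, Adam19, Adam9 and Adamts2 fell in WT and rose in KO-labelled cells.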

How the results depend on the processing

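Of the counts of members called higher and lower in the 5 comparisons, 1 moved by over 1.5 times. This was the number lower in KO-labelled cells at day 2, which was 2 with a minimum mean of 5 FPKM. Leaving out each library in turn gave 20 to 22 higher and 6 to 7 lower at day 0, 25 and 4 at day 2, 9 and 21 in the WT response, 11 and 15 in the KO-labelled response and 15 to 16 positive and 9 to 10 negative interactions. The replicate block left the counts as they were, at 21 and 7, 25 and 4, 9 and 21, 11 and 15, and 16 and 10. Libraries of different groups with the same replicate number had deviations from their group means that correlated at -0.055 to 0.087, and 6 of 12 were closest to their own number. With so few libraries these values do not settle whether the numbers pair them.

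Signs turned in the results that follow, and the cause was not tested. For the KO-labelled response they were Adam10 (0.05 with median-of-ratios), Mmp2 (0.06 with median-of-ratios and quantile, -0.01 to 0.01 with a library left out) and Adamts15 (0.25 with voom, -0.03 to 0.03 with a library left out). At day 0 it was Adam17 (0.01 with TPM, 0.02 with quantile). For the interaction they were Adam12 (0.03 with TPM, 0.19 with quantile, 0.46 with a pseudocount of 0.1, 0.53 with voom), Adam17 (-0.03 with TPM, -0.01 with median-of-ratios, -0.06 with quantile), Adam33 (-0.13 with quantile), Adamts10 (-0.11 with quantile), Adamts6 (0.15 with a pseudocount of 0.1, 0.33 with voom) and Adamts7 (0.38 and 0.51). The interaction call of Adamts10 was lost in 9 of the 12 fits with a library left out (0.11 to 0.17) and with TPM and median-of-ratios scaling (0.10 in both), and that of Adamts7 in 3 of 12 (-0.33 to -0.20; without WT day 0 replicate 2, WT day 2 replicate 1 or KO-labelled day 0 replicate 2) and with TPM (-0.17). That of Adamts9 was lost with voom (-0.08), those of Mmp3 and Adamts5 with quantile (0.17 and 0.04) and that of Mmp2 with TPM (0.04) and median-of-ratios (0.06). Those of Adam33 (1.59 with a pseudocount of 0.1, 2.07 with voom) and Adamts14 (0.47 and 0.55) were gained.

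Read number limited the low members: Adamts15 had 0 to 5 reads and Adamts9 4 to 28 in KO-labelled libraries, and Mmp9 1 to 7 at day 2. Genotype and the culture or clone history of the cells cannot be told apart.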
